A study of Drosophila melanogaster with 6 samples.

Results

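The odorant-binding protein genes of Drosophila melanogaster were examined in antennae of adult females in which programmed cell death (PCD) had been blocked, and in control antennae. Members were all genes whose FlyBase symbol begins with Obp and a digit, together with lush, and this rule found 52 of the 17698 genes in the count tables. The rule uses gene names and no measured value, though the family was taken up with earlier results of these data known.

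Odorant-binding proteins are small soluble proteins. In the antenna, support cells at the base of each sensory hair, or sensillum, secrete them into the lymph that bathes the dendrites of the olfactory neurons, where they bind odorants and pheromones. Antennal sensilla fall into trichoid, intermediate, basiconic and coeloconic classes, and a chambered pit, the sacculus, holds further sensilla. The neurons of each class express their own receptors, and several Obp proteins are known from particular classes. Other members of the family are known from taste organs, epidermis or the male reproductive tract.

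RNA-seq was done on 6 libraries, 3 per group, each made from antennae of about 350 female flies. Control flies were peb-Gal4/+;Or49a-GFP/+, and PCD-blocked flies were peb-Gal4/+;Or49a-GFP/UAS-p35. Every fly therefore carried the driver peb-Gal4, which is active in developing olfactory neurons, and a GFP reporter for neurons expressing the receptor Or49a, and the groups differed in UAS-p35, which encodes p35, a baculoviral inhibitor of caspases. An effect of p35 and any other effect of the chromosome that carries it cannot be told apart. The labels number the libraries by sample pair, 1 to 3 in each group, and flies of both groups were kept on cornmeal food at 25ºC under a 12:12 cycle of light and dark. The age of the adults is not given in the sources used here. In bulk libraries such as these, fewer cells of a type and less RNA per cell cannot be told apart.

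Libraries held 15588725 to 17808516 gene counts, and PCD-blocked 1 had the fewest. On the first principal component, which held 57% of variance, control and PCD-blocked libraries formed separate groups. The 5 markers of olfactory neurons were abundant, summing to 5308 to 5447 CPM in controls and 5959 to 6069 in PCD-blocked libraries, and of these Ir25a and Snmp1 were higher, Ir8a was lower, and Orco and elav did not pass. The co-receptor gene Orco was at 3012 ± 54.0 CPM in controls and 3098 ± 25.3 in PCD-blocked antennae (SD, n = 3). Markers of Johnston's organ, the hearing organ in the second antennal segment, were near 0, with nan and iav summing to 1.04 to 2.07 CPM in controls and 1.40 to 3.14 in PCD-blocked libraries. Of the 4 transcripts listed as male markers, roX2, SP and Acp26Aa were at or near 0 in all 6 libraries, whereas roX1 was at 41.9 ± 4.93 CPM in controls and 46.4 ± 6.26 in PCD-blocked antennae and was called higher (log2 fold change 0.15, edgeR adjusted p = 0.0471). Muscle markers were uneven, at a sum of 27.8 CPM in control 2 and 33.4 in PCD-blocked 3, against 1.08 to 5.12 in the other 4 libraries. Fat body markers summed to 179, 73.8 and 45.3 CPM in controls 1, 2 and 3 and to 68.8 to 81.6 in PCD-blocked libraries, with 1 of 5 tested higher and 2 lower. Eye markers summed to 5.58 to 7.05 CPM in controls and 12.9 to 15.9 in PCD-blocked libraries, nearly all of it from trp, which was higher, while the rhodopsin gene ninaE was near 0. The part of these other tissues in the levels given here was not tested. CPM, the unit of level used here, is the count scaled to a common library total after TMM scaling.

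Of the 52 members, 41 had at least 1 count and 25 had a mean of at least 1 CPM over the 6 libraries. Levels are compared between genes as CPM per kilobase of exon, and on that scale they spanned 19120-fold from the lowest to the highest of those 25 members in controls. Obp19d, known from epidermal cells and taste organs, stood first, with 19132 ± 481 CPM per kilobase in controls (SD, n = 3), and ranked 1 among the 17560 genes with a known length in each group. Obp83a and Obp83b, also called OS-F and OS-E and known from trichoid and intermediate sensilla, followed at 9996 ± 222 and 8597 ± 699 CPM per kilobase, ranks 4 and 5 of all genes. Obp28a, a protein of basiconic sensilla, was at 5349 ± 112 and Obp19a at 4944 ± 92.6. Next came Obp69a at 2665 ± 147 and lush, the trichoid protein needed for the response to the male pheromone cVA, at 2084 ± 58. Obp84a of coeloconic sensilla was at 1777 ± 224, Obp56d at 1724 ± 57.5 and Obp59a, which is needed for sensing humidity through the sacculus, at 1399 ± 64.4.

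These 10 genes had a mean above 1000 CPM and are called abundant below. In controls their library ranges did not overlap from one to the next in this order, apart from Obp84a and Obp56d. A wide step followed, because Obp57c, the eleventh gene, was 6.59-fold below Obp59a, at 212 ± 32.7 CPM per kilobase. Even so, Obp57c stood above the median of all tested genes, which was 13.8 CPM per kilobase in controls. Obp19b, Obp49a and Obp57b lay between 37.9 and 43.2 CPM per kilobase and overlapped one another in range. The remaining 11 members above 1 CPM ran from Obp56e at 20.9 to Obp44a at 1.00 CPM per kilobase, and most neighbours in that stretch overlapped.

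**Figure D1:**
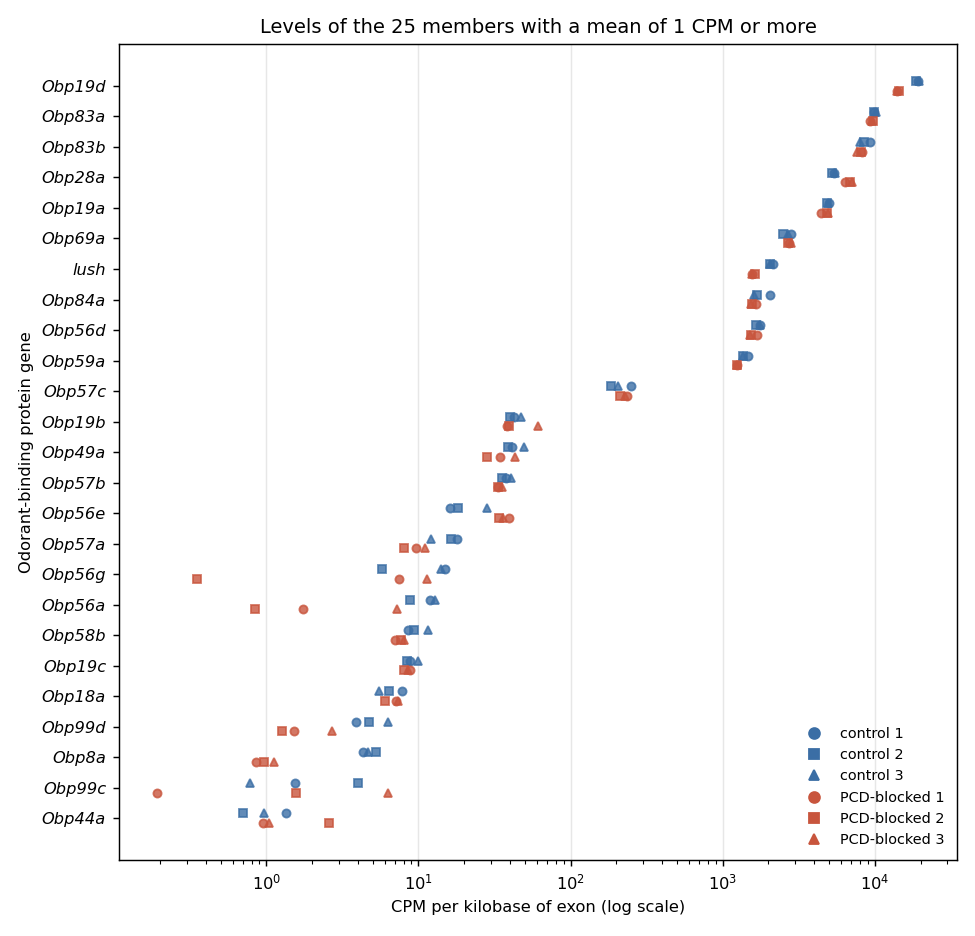
Level of each of the 25 members with a mean of at least 1 CPM, in CPM per kilobase of exon on a log axis, with 1 point per library in blue for control and red for PCD-blocked antennae. The 10 abundant genes form a group from 1399 to 19132 CPM per kilobase in controls, and the step down to Obp57c separates them from the rest.

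The order of the abundant genes was the same in PCD-blocked antennae, but distances within it differed. Obp19d was at 14108 ± 255 CPM per kilobase and Obp28a at 6764 ± 379 (SD, n = 3). The ratio of Obp19d to Obp28a, per kilobase, was 3.55, 3.57 and 3.6 in controls 1, 2 and 3 and 2.21, 2.09 and 1.97 in the PCD-blocked libraries, so the groups lay far apart. The ratio of lush to Obp28a was 0.390 ± 0.013 in controls and 0.235 ± 0.013 in PCD-blocked antennae. In contrast, the ratio of Obp83a to Obp83b was 1.17 ± 0.117 and 1.2 ± 0.063, a difference smaller than the spread between libraries. Lush, Obp84a and Obp56d overlapped in range in PCD-blocked antennae, at 1589, 1587 and 1577 CPM per kilobase. In controls lush did not overlap the other 2, but its lowest library, at 2044, nearly met the highest of Obp84a, at 2032. Obp8a, at position 23 of 25 in controls, was last in PCD-blocked antennae, at 0.984 ± 0.138 CPM per kilobase.

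The family held a large part of the antennal transcriptome. In controls 1, 2 and 3 it took 4.95%, 4.83% and 5.01% of gene counts, and in PCD-blocked 1, 2 and 3 it took 4.32%, 4.45% and 4.40%. Every PCD-blocked library was below every control, and the mean share was 4.93% ± 0.093 against 4.39% ± 0.063 (SD, n = 3), a difference of -0.538 percentage points. This sum is described and was not tested. The 10 abundant genes held 99.5% of the family's counts in controls and 99.4% in PCD-blocked antennae.

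Most of the difference in the share lay in Obp19d. That gene alone took 2.05%, 2.03% and 2.15% of all gene counts in controls and 1.56%, 1.6% and 1.56% in PCD-blocked antennae, a difference of -0.508 percentage points. The other 51 members together took 2.85% ± 0.050 and 2.82% ± 0.044 of unscaled gene counts (SD, n = 3), and these ranges overlapped. After TMM scaling, however, their summed CPM was lower in every PCD-blocked library than in every control. The unscaled sum also joins genes of opposite direction. Obp28a differed by 0.090 percentage points, against -0.044 for lush, -0.013 for Obp59a and -0.012 for Obp84a. Within the family, the share of Obp19d was 42.2% ± 0.754 in controls and 35.8% ± 0.364 in PCD-blocked antennae, and the share of Obp28a was 6.16% ± 0.065 and 8.96% ± 0.451. Obp83a took 19.7% ± 0.501 of the family's counts in controls and 21.7% ± 0.238 in PCD-blocked antennae, although its own share of all gene counts was 0.973% ± 0.031 and 0.952% ± 0.022.

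**Figure D2:**
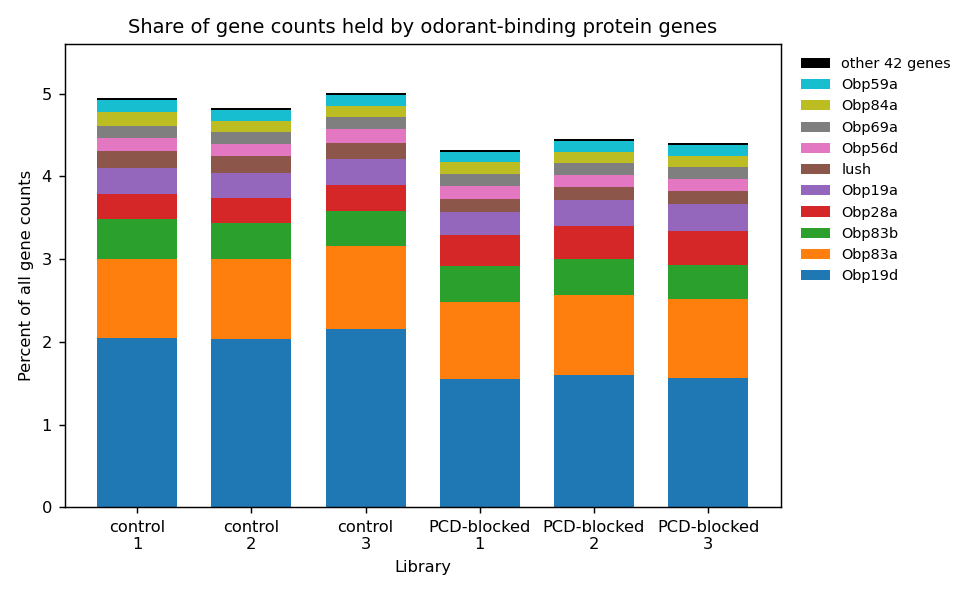
Stacked bars of the percent of all gene counts held by the 10 abundant odorant-binding protein genes and by the other 42 members, for each of the 6 libraries. Bars reach 4.83% to 5.01% in controls and 4.32% to 4.45% in PCD-blocked antennae, and the lowest segment, Obp19d, holds most of that difference.

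The comparison of PCD-blocked with control antennae asked which transcripts differ when cell death is blocked. Of the members, 10 were lower in PCD-blocked antennae and 2 were higher. Among abundant genes the differences were small, with Obp19d 1.36-fold lower, lush 1.31-fold lower and Obp28a 1.26-fold higher. The largest fold differences were in rare transcripts, with Obp8a 4.76-fold, Obp56a 3.95-fold and Obp99d 2.76-fold lower. The value of Obp56a rests on which libraries are included, as given with that gene. Obp56e was the other member that rose, by 1.77-fold.

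Counts were tested with edgeR's quasi-likelihood test with the sample pair as a block, at a Benjamini-Hochberg adjusted p of 0.05 over all 9181 tested genes. Of the 52 members, 26 passed the filter on low counts and were tested, and 12 of these were called, which is 46.2%. Among all tested genes 27.7% were called. By direction, 2 members were higher, where 14.3% of all tested genes were, and 10 were lower, where 13.3% were. The median log2 fold change of the tested members was -0.12, against 0.00 for all tested genes. The CPM ranges of the groups did not overlap for 12 of the 26 members and for 38.7% of all tested genes. All 12 called members moved in 1 direction in all 3 sample pairs, but the fit used these same pairs, so this is no separate support. Of the 12, 3 differed by more than 2-fold and 7 by less than 1.5-fold. Among all tested genes, 320 of the 2539 called differed by more than 2-fold.

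Among all tested genes the share called rose with abundance. Of the 10 abundant members 1 was higher and 5 were lower, and 53.0% of all tested genes of at least 1000 CPM were called. Of the 5 members between 10 and 1000 CPM 1 was higher and 1 lower, beside 30.3% called among all tested genes in that range. Of the 10 members between 1 and 10 CPM 4 were lower, beside 20.0% called. Obp50e, the single tested member under 1 CPM, did not pass, at a log2 fold change of 0.24 ± 0.39 (SE, n = 3).

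Of the 12 calls, 6 held under all 11 other settings of the test, namely Obp19d, lush, Obp28a, Obp56a, Obp99d and Obp8a. Without sample pair 2, 1 member was higher and 5 were lower, when 16.1% of all tested genes were called. Without the pair as a block, 2 were higher and 7 lower, with 23.2% of all tested genes called. DESeq2 called 2 higher and 10 lower, with 14.3% of all tested genes called. With no filter on low counts, 3 members were higher and 12 lower, with 19.4% of all genes fitted called. Calls that did not hold are named beside their genes.

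**Figure D3:**
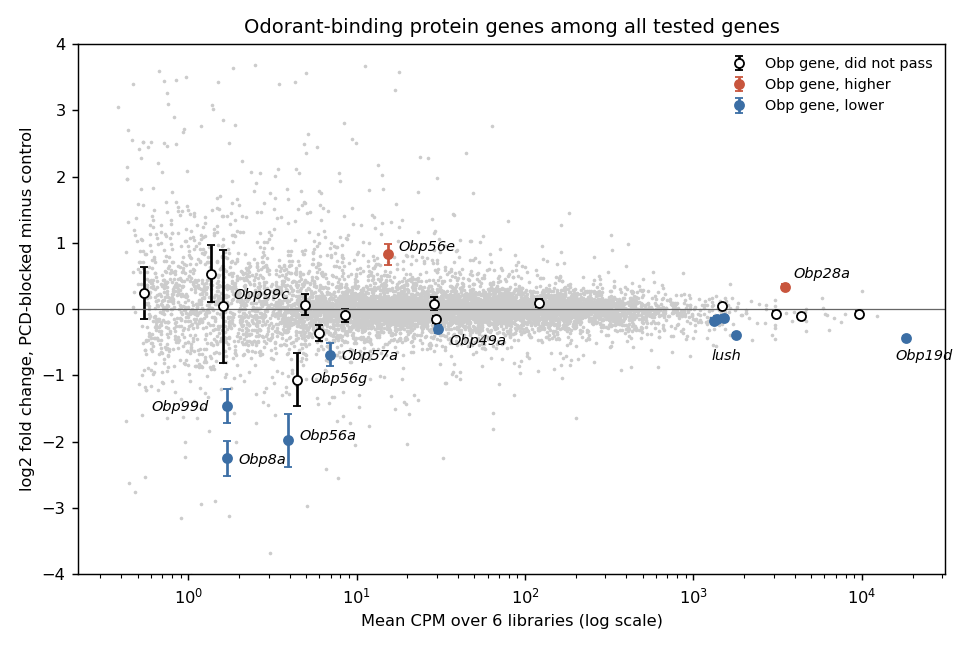
Log2 fold change of PCD-blocked over control against mean CPM over the 6 libraries on a log axis, with all tested genes in grey and odorant-binding protein genes as larger symbols with bars of 1 SE, filled where called; 19 tested genes lie outside the plotted range. Abundant members lie close to 0 with short bars, and the members beyond -1 are all under 10 CPM.

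Obp19d (FBgn0011280, chromosome X, 20419613 to 20420979, plus strand, BDGP6) was at 21030, 20552 and 21610 CPM in controls 1, 2 and 3 and at 15443, 15847 and 15308 CPM in the PCD-blocked libraries. All PCD-blocked libraries were below all controls. It fell by 0.44 on the log2 scale (SE 0.03, edgeR adjusted p = 3.82e-05), and the 3 sample pairs gave -0.45, -0.38 and -0.50.

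Obp56d (FBgn0034470) and Obp49a (FBgn0050052) were grouped with it as genes known from taste organs or epidermis. Obp49a is a taste protein needed for bitter compounds to suppress the response to sweet. Obp56d was at 1619, 1528 and 1621 CPM in controls and 1551, 1417 and 1395 in PCD-blocked antennae, with overlapping groups. It fell by 0.13 on the log2 scale (SE 0.04, edgeR adjusted p = 0.0344), and this call was lost without the block (edgeR adjusted p = 0.104), without sample pair 2 (0.156) and without sample pair 3 (0.225). Obp49a was at 32.2, 30.4 and 38.3 CPM in controls and 26.8, 22.1 and 33.6 in PCD-blocked antennae, lower in each pair although the groups overlapped. It fell by 0.30 on the log2 scale (SE 0.06, edgeR adjusted p = 0.00883). DESeq2 did not call it (adjusted p = 0.105), and neither did edgeR without the block (0.175) or without sample pair 2 (0.0893).

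Obp57e, a taste protein involved in the response to fatty acids of a host plant, was not tested, with 2 to 9 counts per library. Beside these genes, the 5 markers of taste organ neurons summed to 67.4 to 74.2 CPM in controls and 67.3 to 73.2 in PCD-blocked antennae. Of 4 tested 1 was higher, the bitter taste receptor gene Gr33a, and the other 3 did not pass. The even sum hides ppk23, a channel gene among the 5 markers that varied between PCD-blocked libraries, as given with Obp56g below.

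Among the genes of trichoid and intermediate sensilla, lush fell and the Obp83 pair did not pass the test. Lush (FBgn0020277, chromosome 3L, 19604398 to 19606090, minus strand) was at 2105, 2014 and 2001 CPM in controls and 1536, 1596 and 1534 in PCD-blocked antennae. The groups were well apart, and lush fell by 0.39 on the log2 scale (SE 0.04, edgeR adjusted p = 8.1e-05).

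Obp83a (FBgn0011281, chromosome 3R, 5972155 to 5975245, minus strand) was at 9720, 9739 and 10109 CPM in controls and 9205, 9531 and 9483 in PCD-blocked antennae. The groups did not overlap, but the log2 fold change of -0.07 ± 0.03 (SE) did not pass (edgeR adjusted p = 0.154). Obp83b (FBgn0010403, chromosome 3R, 5976177 to 5976817, minus strand) was at 4931, 4487 and 4199 CPM in controls and 4334, 4286 and 4020 in PCD-blocked antennae. Its log2 fold change of -0.11 ± 0.04 missed the threshold (edgeR adjusted p = 0.0634) and passed with DESeq2 (adjusted p = 0.0224), with limma-voom (0.0467) and with edgeR without the filter on low counts (0.0426).

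The receptors of these sensilla, which are expressed by the neurons and not by the support cells, are given for comparison. Of 12 tested receptor genes of trichoid and intermediate sensilla 5 were higher and 1 was lower, with a median log2 fold change of 0.07. Among all tested genes 14.3% were higher and 13.3% lower. The summed level of these receptors was 281 to 315 CPM in controls and 394 to 416 in PCD-blocked antennae. Or65b went from 12.2 ± 2.05 to 47.6 ± 3.09 CPM and Or65a from 9.13 ± 2.93 to 43.9 ± 3.67. Or67d, the receptor for cVA, was at 54.5 ± 4.59 CPM in controls and 48.0 ± 3.63 in PCD-blocked antennae. Its log2 fold change of -0.18 ± 0.06 (SE) missed the threshold (edgeR adjusted p = 0.0697). Snmp1, a membrane protein of pheromone-sensing neurons that is also needed for the response to cVA, rose from 1442 ± 92.5 to 1873 ± 62.9 CPM (edgeR adjusted p = 7.75e-05). Lush and Snmp1 therefore moved in opposite directions, in every pair.

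Obp28a (FBgn0011283, chromosome 2L, 7496791 to 7497365, minus strand), the protein of basiconic sensilla, was the single abundant member that rose. It was at 3092, 3005 and 3131 CPM in controls and 3645, 3961 and 4062 in PCD-blocked antennae, and all PCD-blocked libraries were above all controls. It was higher by 0.34 on the log2 scale (SE 0.04, edgeR adjusted p = 0.000337), with pair values of 0.24, 0.40 and 0.38. Of 25 tested receptor genes of basiconic sensilla 8 were higher and 11 lower, where 14.3% and 13.3% of all tested genes were. The median log2 fold change of these receptors was -0.11. Their summed level was 1664 to 1833 CPM in controls and 1567 to 1672 in PCD-blocked antennae.

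The members of coeloconic sensilla and of the sacculus were slightly lower. Obp84a (FBgn0011282, chromosome 3R, 7250725 to 7251957, minus strand), a coeloconic protein, was at 1660, 1374 and 1320 CPM in controls and 1362, 1274 and 1254 in PCD-blocked antennae. The groups overlapped because PCD-blocked 1 exceeded control 3, and Obp84a fell by 0.16 on the log2 scale (SE 0.04, edgeR adjusted p = 0.03). This call was lost without the block (edgeR adjusted p = 0.183), without sample pair 1 (0.0932) and without sample pair 2 (0.11). Of its 817 bases of exon, 663 lie opposite exons of Dtwd2, which was at 3.02 ± 0.346 CPM in controls.

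Obp59a (FBgn0034766, chromosome 2R, 22702695 to 22703786, plus strand) was at 1490, 1383 and 1372 CPM in controls and at 1251, 1251 and 1247 in PCD-blocked antennae. The PCD-blocked libraries lay very close together, below all controls. It fell by 0.18 on the log2 scale (SE 0.04, edgeR adjusted p = 0.00617), and just missed the threshold without sample pair 2 (0.0502). Among receptors, 3 of 9 tested genes of coeloconic sensilla were higher and 5 lower, at a median log2 fold change of -0.23 and a sum of 579 to 651 CPM against 554 to 588. Of 4 sacculus receptors 1 was higher and 2 were lower, with a median log2 fold change of 0.05. Their summed level was 224 to 230 CPM in controls and 191 to 198 in PCD-blocked antennae. Beside both lists, 14.3% of all tested genes were higher and 13.3% lower. Ir40a, a receptor of the sacculus that takes part in sensing dry air, fell from 90.4 ± 3.35 to 72.9 ± 2.07 CPM (edgeR adjusted p = 0.00033).

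The other abundant antennal members, Obp19a and Obp69a, did not pass. Obp19a was at 3239, 3120 and 3178 CPM in controls and 2860, 3101 and 3144 in PCD-blocked antennae, a log2 fold change of -0.07 ± 0.04 (SE, edgeR adjusted p = 0.269). Obp69a, which is known from social responses to cVA, was at 1531, 1370 and 1464 CPM in controls and 1487, 1463 and 1529 in PCD-blocked antennae, a log2 fold change of 0.04 ± 0.04 (edgeR adjusted p = 0.492). Groups overlapped for both genes.

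Genes of the support cells, which make these proteins, were read from the same fit. Of 5 support cell markers 1 was higher and 3 were lower, beside 14.3% higher and 13.3% lower among all tested genes. The transcription factor gene sv fell from 174 ± 2.91 to 134 ± 6.37 CPM, the ammonium transporter gene Amt from 1272 ± 26.2 to 1108 ± 32.1 and the transcription factor gene pros from 139 ± 15.7 to 115 ± 3.75, whereas nompA, which encodes a protein of the dendritic cap, rose from 17.9 ± 3.34 to 30.7 ± 1.43 CPM. Their summed level, most of it from Amt, was 1813 to 1855 CPM in controls and 1592 to 1677 in PCD-blocked antennae. The part of these markers in the levels of Obp19d, lush, Obp84a and Obp59a was not tested.

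Several members known from the male reproductive tract were found at low levels in these female antennae. Obp56e (FBgn0034471, chromosome 2R, 19712345 to 19712932, plus strand) was at 8.57, 9.66 and 15.1 CPM in controls and 21.1, 18.1 and 19 in PCD-blocked antennae, from 577 and 983 counts in all. All PCD-blocked libraries were above all controls, though control 3 came close. Obp56e was higher by 0.82 on the log2 scale (SE 0.15, edgeR adjusted p = 0.00427), its pair values were 1.30, 0.91 and 0.34, and without sample pair 2 it just missed the threshold (0.0505). An annotated antisense RNA that covers 449 of its 532 exon bases had no counts in any library.

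Obp8a (FBgn0030103, chromosome X, 9214876 to 9215699, plus strand) was at 2.59, 3.12 and 2.77 CPM in controls and 0.51, 0.579 and 0.674 in PCD-blocked antennae. These values rest on 147 and 30 counts in all, and the groups were far apart. Obp8a fell by 2.25 on the log2 scale (SE 0.26, edgeR adjusted p = 0.00033), with pair values of -2.35, -2.43 and -2.04.

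Obp56g (FBgn0034474) was at 7.37, 2.83 and 6.93 CPM in controls and 3.69, 0.174 and 5.67 in PCD-blocked antennae. The second library was the lowest of each group, the groups overlapped, and a log2 fold change of -1.06 ± 0.40 (SE) did not pass (edgeR adjusted p = 0.0818). It passed with DESeq2 (adjusted p = 0.0253), with edgeR without the filter on low counts (0.0227) and without sample pair 3 (0.0257).

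Obp56a and Obp99d also fell from low levels. Obp56a (FBgn0034468) was at 6.5, 4.8 and 6.99 CPM in controls and 0.956, 0.463 and 3.93 in PCD-blocked antennae. PCD-blocked 3 stood well above the other PCD-blocked libraries but below all controls. Obp56a fell by 1.98 on the log2 scale (SE 0.40, edgeR adjusted p = 0.00627), with pair values of -2.77, -3.37 and -0.83. Without sample pairs 1, 2 and 3 in turn its log2 fold change was -1.70, -1.60 and -3, past the threshold each time. Obp99d (FBgn0039684) was at 1.96, 2.37 and 3.18 CPM in controls and 0.764, 0.637 and 1.35 in PCD-blocked antennae, without overlap, and fell by 1.46 on the log2 scale (SE 0.26, edgeR adjusted p = 0.00331).

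Obp57a (FBgn0043535) was at 9.96, 9.19 and 6.70 CPM in controls and 5.35, 4.46 and 6.12 in PCD-blocked antennae. The groups were separate by a small margin, and Obp57a fell by 0.69 on the log2 scale (SE 0.17, edgeR adjusted p = 0.0188). DESeq2 did not call it (adjusted p = 0.0828), nor did edgeR without sample pair 1 (0.108) or 2 (0.14).

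The unevenness of Obp56a and Obp56g between PCD-blocked libraries was shared by other genes. The 8 CheA genes, members of a family of taste hair proteins, summed to 23.8, 6.02 and 46.5 CPM in PCD-blocked 1, 2 and 3 and to 26.5 to 35.7 in controls. The 12 CheB genes of the related family summed to 17.3, 9.78 and 20.2 CPM and to 23.6 to 32.2 in controls. Ppk23, a channel gene of pheromone-sensing taste neurons, was at 2.55, 0.463 and 4.04 CPM. PCD-blocked 2 was the lowest and PCD-blocked 3 the highest in each case. The called members Obp49a (26.8, 22.1 and 33.6 CPM), Obp57a (5.35, 4.46 and 6.12) and Obp99d (0.764, 0.637 and 1.35) had that order too. The part of this variation in the values of Obp56a, Obp56g and these called members was not tested.

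**Figure D4:**
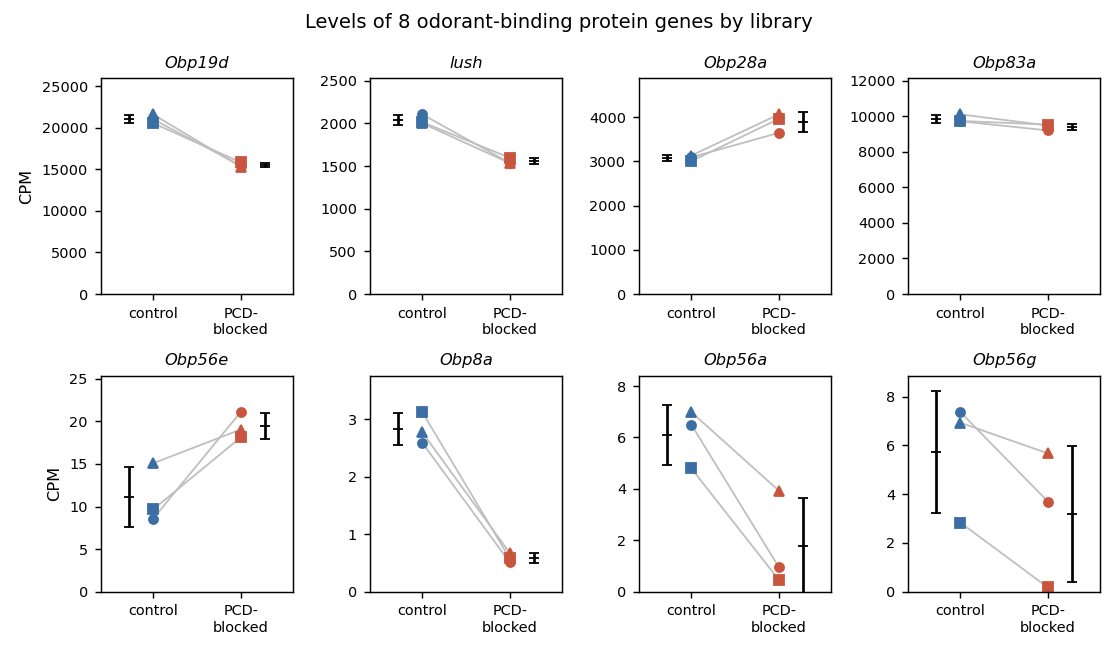
CPM of 8 odorant-binding protein genes in control and PCD-blocked antennae, with 1 symbol shape per sample pair, grey lines joining pairs and black marks for the mean ± SD of 3 libraries. Groups are apart for Obp19d, lush, Obp28a and Obp8a with little spread, while Obp56a and Obp56g vary widely among PCD-blocked libraries.

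A further 7 members above 1 CPM did not pass. Obp57c was at 118 ± 18.2 CPM in controls and 125 ± 6.73 in PCD-blocked antennae. Its log2 fold change was 0.09 ± 0.05 (SE), and it passed as higher only when sample pair 1 was left out (edgeR adjusted p = 0.0128). Obp57b was at 31.2 ± 2.12 and 27.9 ± 0.912 CPM and Obp58b at 6.75 ± 1.09 and 5.24 ± 0.366, and neither overlapped between groups (edgeR adjusted p = 0.0624 and 0.0629). Obp19b was at 27.9 ± 2.39 and 29.9 ± 8.43 CPM, Obp19c at 8.83 ± 0.737 and 8.26 ± 0.368, and Obp18a at 4.81 ± 0.834 and 5 ± 0.532, all with overlapping groups. Obp44a was at 1.08 ± 0.345 and 1.64 ± 0.987 CPM.

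Obp99c was the least even member. It was at 1.04, 2.66 and 0.52 CPM in controls and 0.127, 1.04 and 4.21 in PCD-blocked antennae, and the pairs moved in different directions. Its log2 fold change was 0.04 ± 0.85 (SE, edgeR adjusted p = 0.98), and without sample pair 3 it was -1.69 (edgeR adjusted p = 0.0196). Its highest libraries, control 2 and PCD-blocked 3, were those with the highest muscle markers, where Mhc, the muscle myosin heavy chain gene, was at 16.9 and 21.6 CPM, against 0 to 2.94 in the other 4 libraries. The part of that tissue in the level of Obp99c was not tested.

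Of the 26 members that were not tested, 15 had some counts and 11 had none in any library. No untested member had more than 24 counts in a library. A count of 3, the floor chosen here, corresponded to 0.168 to 0.192 CPM, and a single count to 0.056 to 0.064 CPM. Obp99a had 0, 1 and 1 counts in controls and 1, 7 and 24 in PCD-blocked antennae, and Obp99b had 1, 7 and 10 and then 0, 8 and 24. When the filter was dropped, 15 of these members could be fitted and 1 was called, Obp99a, which was higher (edgeR adjusted p = 0.00751). Of its counts in PCD-blocked antennae most came from PCD-blocked 3, the library that was also highest in Obp99b, Obp99c and muscle markers, and the part of that tissue was not tested. No member had counts in only 1 of the groups. The 11 members without counts were Obp22a, Obp46a, Obp47a, Obp50b, Obp50c, Obp50d, Obp51a, Obp56b, Obp56i, Obp57d and Obp73a. Of these, Obp22a, Obp51a and Obp56i are known from the male reproductive tract, and Obp57d from taste organs.

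A count of 0 need not mean that a transcript was not sequenced. Obp50b and Obp50c share all 1648 of their annotated exon bases with each other on the same strand, and all 1488 exon bases of Obp57d lie in exons of Cpr57A, so reads from these genes may not have been given to a single gene, which was not tested. In all, 14 members share exon bases with another gene, 4 on the same strand and 10 on the opposite strand. The strand setting of the counting is not given in the sources used here. Of the abundant members, Obp59a, Obp69a and Obp84a have such opposite neighbours.

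Members lie on 5 chromosome arms, with 29 on 2R, 12 on 3R, 6 on X, 3 on 3L and 2 on 2L, and many stand next to each other. Neighbours had very different levels. On the X chromosome, Obp19a, Obp19b, Obp19c and Obp19d lie in this order between 20415744 and 20420979, with gaps of 211, 108 and 648 bases, and were at 3179, 27.9, 8.83 and 21064 CPM in controls. Of these 4 genes only Obp19d was called. The ratio of Obp19d to Obp19a, per kilobase, was 3.87 ± 0.092 in controls and 2.99 ± 0.155 in PCD-blocked antennae. On its other side, 107 bases away, Pp4-19C was at 50.3 ± 1.42 and 52.7 ± 2.45 CPM and did not pass.

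On arm 2R, Obp56d at 1590 CPM in controls lies between Obp56c, at 0.596 CPM, and Obp56e, and the group holds a member that rose, Obp56e, beside Obp56a and Obp56d, which fell. Obp57c, Obp57b and Obp57a follow one another there, at 118, 31.2 and 8.62 CPM in controls, and of these Obp57a was called. Obp59a lies 917 bases from Obp58b, with 1415 and 6.75 CPM. Obp83a and Obp83b on arm 3R are 931 bases apart, both abundant, and neither was called. Near lush, CG9372, 117 bases away, fell by 0.22 on the log2 scale (SE 0.03, edgeR adjusted p = 0.00114). On the other side of lush, 277 bases away, CG9368 was at 18.2 ± 0.642 CPM in controls and 21.3 ± 1.55 in PCD-blocked antennae, without overlap, and did not pass (log2 fold change 0.23 ± 0.08 SE, edgeR adjusted p = 0.0546). Near Obp28a, RapGAP1, 439 bases away, fell by 0.16 (SE 0.03, edgeR adjusted p = 0.0057) while Obp28a rose.

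**Figure D5:**
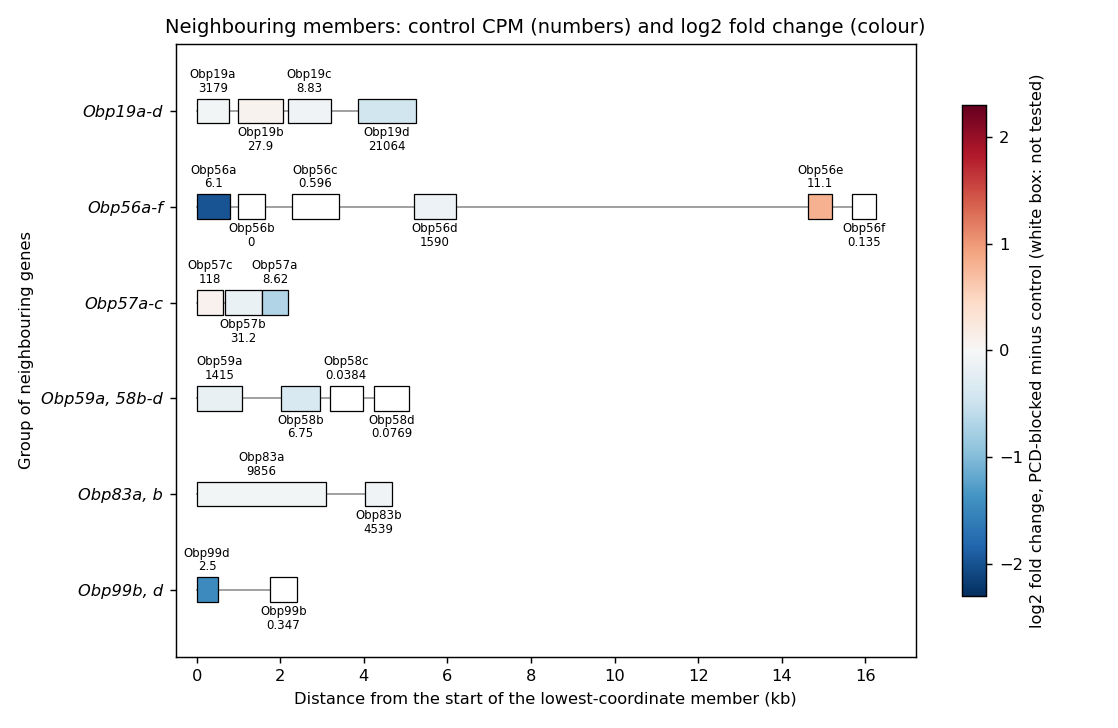
Groups of neighbouring members drawn to scale in kb from the start of the first gene, with the control CPM written at each gene and the log2 fold change as colour, white with a black edge where not tested. Obp19a to Obp19d range from 8.83 to 21064 CPM within a short stretch, and the Obp56 group holds genes of opposite direction.

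The encoded proteins had 117 to 259 residues in the annotation, with a median of 152, and the genes had 1 to 5 exons. Obp28a had 1 exon, and Obp83a and Obp84a had 5. Abundant members had a median of 149 residues and members without counts 165, with ranges that overlapped widely.

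Other soluble carrier proteins of the antenna were counted in the same way. The list held 34 genes of the CSP-related, CheA, CheB and Npc2 families with to and a5, and 19 were tested with edgeR. Of these, 4 were lower and the other 15 did not pass, with a median log2 fold change of -0.25. Among all tested genes 13.3% were lower and 14.3% higher. Without sample pair 3, 9 of the list were lower, when 1001 of all tested genes were lower and 986 higher. CheB42b fell from 14.7 ± 2.54 to 5.94 ± 0.857 CPM (SD, n = 3, edgeR adjusted p = 2.21e-05) and CheB93b from 3.77 ± 0.773 to 0.79 ± 0.135 CPM (edgeR adjusted p = 0.000173). The abundant CSP-related genes EbpIII and a10 fell slightly, from 2545 ± 79.4 to 2210 ± 74.6 and from 7166 ± 251 to 6532 ± 201 CPM. The summed level of the list was 14205 to 15645 CPM in controls and 13650 to 14319 in PCD-blocked antennae, which overlapped.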

How the data were processed

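The deposited values are raw read counts per gene, 1 file per library. Per the submitters' processing notes the authors used HTSeq 0.9.1, STAR 2.5.3a, cutadapt 1.8 and the genome build BDGP6. Their order and settings, with the strand setting and annotation release, were not stated. Per the labels' protocols, the antennae were frozen and sieved, TRIzol was used for the RNA, and a directional kit was used on its poly(A) fraction. Each file lists 17698 genes and 5 rows that name no gene. Those rows held 11.9% to 13.5% of counts and were left out. Symbols, exon lengths and coordinates (counted from 1) of 17560 genes came from Ensembl release 115 (BDGP6.54). No sequences are given.

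Genes were tested with edgeR 4.0.16 (R 4.3.3), TMM scaling, filterByExpr by group, and the sample pair as a block. The design text calls the study paired and the labels number the pairs. Deviations from the group means correlated at 0.07, 0.24 and -0.19 within pairs 1, 2 and 3 and at -0.37 to 0.29 between libraries of different pairs (9181 genes), and what a pair shares was not stated. Standard errors came from the fold change and the F statistic. Each p-value weighs a difference against the variation between libraries of pooled flies that is left after the pair block. CPM values are scaled by TMM, and shares use unscaled gene counts. Means and SDs are over 3 libraries. Replicates differed beyond counting noise (chi-square over its degrees of freedom 3.96 to 10.1).

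Alternatives were DESeq2 1.42.0, limma-voom (limma 3.58.1), other scalings and filters, no block, and each pair left out. Tables and figures used Python 3.11.15. The members and lists were chosen with earlier results of these data known. Named were every member of at least 1 CPM or past the threshold, up to 3 genes of smallest p from each list, Orco, Snmp1 and Or67d. Outside that rule, and picked with their values in view, were genes at or near 0 in marker lists, the other members of at most 24 counts, ppk23, Mhc, nan, a10, Amt, Dtwd2, Cpr57A, Pp4-19C, CG9368, CG9372 and RapGAP1.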

Additional observations from a re-analysis of the deposited data

How the results depend on the processing

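Over the single odorant-binding protein genes, 257 of the values under other settings kept direction and side of the threshold, 14 lost the call, 7 gained it and 6 reversed. Obp99c was at a log2 fold change of -0.64 with DESeq2 and -0.0071 without a filter, and leaving out each pair gave it -1.69 to 0.84, with the lowest value, past the threshold, without sample pair 3. The other reversals were of genes that did not pass in either fit, when 1 pair was left out, with ranges of -0.11 to 0.16 for Obp18a, -0.084 to 0.19 for Obp19b and -0.19 to 1.02 for Obp44a. The other changes of call are given beside each gene in the report. With no filter 3 Obp genes were higher and 12 lower, and the third higher gene was Obp99a, which the filter otherwise left out. The cause was not tested for any of these, and leaving out a pair leaves 4 libraries and a single residual degree of freedom. No scaling moved the median of all genes by more than 0.0044 on the log2 scale.

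Without the replicate block, 2 Obp genes were higher and 7 lower, and 1124 and 1010 of all tested genes. Of all tested genes 1314 were higher and 1225 lower in the fit reported, and DESeq2 gave 653 and 662. Leaving out each pair in turn gave 753 (without pair 2) to 1065 higher and 728 (without pair 2) to 1006 lower genes, 1 to 3 higher and 5 to 11 lower Obp genes, and a difference in share of -0.617 to -0.495 percentage points. DESeq2 called 0 trichoid and intermediate receptors lower, 1 coeloconic receptor higher and 3 lower, and 0 sacculus receptors higher, and 2 trichoid and intermediate receptors were lower with no filter. With pairs left out, these lists gave 0 (without pair 2) to 2 (without pair 3) trichoid and intermediate receptors lower, 1 (without pair 3) to 3 coeloconic receptors higher and 0 (without pair 1) to 1 sacculus receptors higher. The soluble carriers gave 0 to 1 (without pair 1) higher and 3 to 9 (without pair 3) lower. The order of members by level was the same with the longest transcript as length. With 3 libraries a group, an exact two-sided permutation test cannot go below p = 0.1. Most members under 1 CPM were left out by the filter, and of the 15 fitted without it Obp99a alone was called.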
